A study of Drosophila melanogaster with 16 samples.

Results

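The brain-ring gland complex (BRGC) of Drosophila melanogaster larvae was compared between dfr14 mutants and controls, across all 9731 genes of the expression table for this tissue. The comparison rests on 4 dfr14 libraries and 4 control libraries, of 16 libraries in a series that also sampled the remaining body. The libraries were assigned by their titles, because the genotype field of the labels follows the tissue and not the mutation. Larvae were untreated and in the wandering stage of the third instar, and RNA was read as stranded, poly-A selected libraries. dfr14 larvae were homozygous for a short deletion just after the first stop codon of dfr, the gene listed as vvl in the table, and control larvae had the unedited gene. Both groups carry the background label w[1118] and were reared at 25 °C. The libraries are described as biological replicates with no word on separate cultures, so that p-values measure the spread between these libraries.

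The deletion removes the form of the protein that is made when ribosomes read through that stop codon, and leaves the shorter form. The mutation was made in a line that expresses Cas9 in the germ line, and the larvae that were sequenced had been crossed only to a balancer stock. The control therefore differs from the mutant in genetic background as well as in the deletion, and the 2 cannot be told apart. Larvae were staged by behaviour, and their ages are not given in the sources used here. The paper reports that dfr14 larvae pupariated later than controls and had low ecdysone when controls peaked. Age and hormone state may therefore also differ between the groups, and their part in the results was not tested.

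The BRGC holds the brain lobes, the ventral nerve cord and the ring gland, an endocrine organ that joins the prothoracic gland, the corpora allata and the corpora cardiaca. Prothoracic gland cells turn dietary sterol into ecdysone through a chain of dedicated enzymes, the corpora allata make juvenile hormone, and the corpora cardiaca release adipokinetic hormone. Pulses of ecdysone time molting and pupariation, and in the brain they also act on neural stem cells. The dfr gene encodes a transcription factor of the POU family that acts in the nervous system, the trachea and the prothoracic gland, and the comparison asks which BRGC transcripts differ when its readthrough form is missing.

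Libraries held 19423852 to 27673191 reads assigned to genes in the dfr14 group, against 20458363 to 30118366 in the control group. Levels are given as counts per 1000000 reads (CPM), scaled between libraries, and per-library values follow the order of the columns. Levels of different genes are not compared, since CPM is not corrected for length. In a bulk tissue, fewer cells of a type and less RNA per cell cannot be told apart.

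A gene was called when its adjusted p (limma over all 9731 genes, Benjamini-Hochberg) was under 0.05. By that rule 980 genes were higher in dfr14 BRGCs (10.1%) and 574 were lower (5.9%), so that 16% of all genes tested were called. The median size of a called log2 fold change was 0.65, and 533 of the 1554 called genes (34.3%) lay beyond 1 on the log2 scale. The median over all genes was -0.02, and 5070 of the 9731 fold changes were negative. Counts for the gene lists below are to be read against these shares over all genes. Higher calls made up 63.1% of the calls, against 44.2% when libraries were scaled by their size alone. Without dfr14 library 4 the counts were 633 higher and 268 lower, and without control library 4 they were 646 higher and 268 lower. The lower calls numbered 366 without dfr14 library 3 and 304 without control library 1. Among the gene lists described here and the others examined, 29 counts were of 1 or 2 genes in 1 direction, and 18 of these were 0 with some library left out.

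**Figure D1:**
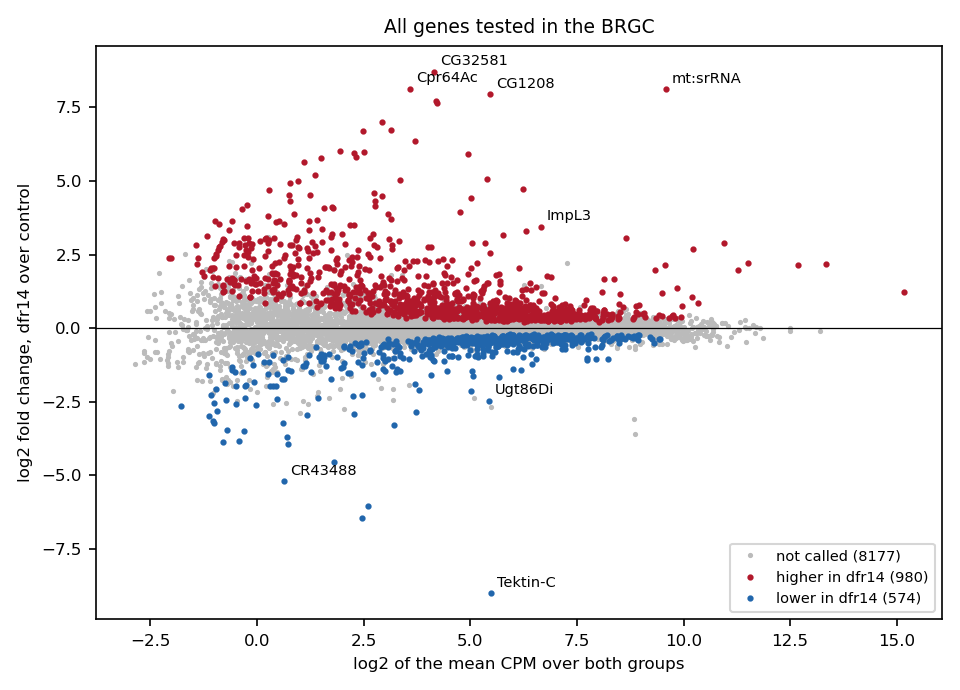
Log2 fold change of dfr14 over control (vertical axis) against the log2 of the mean CPM over both groups (horizontal axis), 1 point per gene, for all 9731 genes. The 980 genes called higher in dfr14 (red) reach 8.72 and the 574 called lower (blue) reach -9.01, and 8177 genes (grey) were not called.

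The vvl transcript itself was more abundant in mutant tissue, and transcripts of 4 of the 6 ecdysone synthesis enzymes were less abundant. vvl lies on chromosome 3L (6790158 to 6794941, Release 6) and had 100.2, 90.5, 110.4 and 116 CPM in dfr14 libraries, against 63.1, 63.9, 64.2 and 68.4 CPM in control libraries. Each dfr14 library was above each control library, and vvl rose by 0.68 on the log2 scale (standard error 0.09, adjusted p = 0.00077). Reads were counted over the whole gene, of which the deletion removes only a small stretch, so the level does not check the genotype. Of the 5 POU-domain genes measured, vvl alone was called.

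The enzymes are described in the order in which they act on sterol. nvd, the Rieske oxygenase that takes the first step from cholesterol, had 20.5, 17.4, 19.6 and 17.1 CPM in dfr14 libraries, against 21, 37.6, 27.5 and 30.3 CPM in control libraries. nvd was lower without overlap (log2 fold change -0.61, standard error 0.16, adjusted p = 0.033), though the first control library lay just above the dfr14 group. The call for nvd ended in 6 of the 8 fits that left out 1 library and in 2 other settings, with adjusted p between 0.0078 and 0.095 over all alternatives. It held only without control library 1 or control library 3 among those 8 fits.

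spok, the cytochrome P450 of the step known as the black box, had 101, 117, 116 and 108 CPM in dfr14 libraries, against 131, 235, 183 and 194 CPM in control libraries. The dfr14 values were tightly grouped below all controls, and spok fell by 0.72 on the log2 scale (standard error 0.15, adjusted p = 0.013). sro, a short-chain dehydrogenase placed in the same step, had 12.6, 14.5, 8.56 and 9.79 CPM in dfr14 libraries, against 20.1, 16.5, 9.89 and 14.8 CPM in control libraries. The groups overlapped and sro was not called (log2 fold change -0.41, standard error 0.23, adjusted p = 0.26).

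The hydroxylases that finish ecdysone come next. phm had 73, 75.6, 38.8 and 54.6 CPM in dfr14 libraries, against 93.4, 78.7, 62.2 and 96.4 CPM in control libraries. The groups overlapped, and phm was not called (log2 fold change -0.48, standard error 0.22, adjusted p = 0.17). dib had 8.59, 5.76, 4.82 and 5.48 CPM in dfr14 libraries, against 14.3, 15, 12.5 and 8.06 CPM in control libraries. The fourth control library lay within the dfr14 range, and dib was called lower (log2 fold change -1.0, standard error 0.23, adjusted p = 0.019). The call for dib ended without dfr14 library 4 or without control library 1, where its adjusted p reached 0.059.

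sad, the last of the prothoracic gland enzymes, had 78.6, 70.7, 38.3 and 60.7 CPM in dfr14 libraries, against 129, 116, 118 and 131 CPM in control libraries. The groups were far apart, and sad fell by 1.04 on the log2 scale (standard error 0.19, adjusted p = 0.0064). All 6 members were negative, and the median of the list was -0.67 on the log2 scale. Summed over the enzymes, the level was 226 to 301 CPM in dfr14 libraries and 409 to 499 CPM in control libraries. The count of lower enzymes was 2 without dfr14 library 4.

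**Figure D2:**
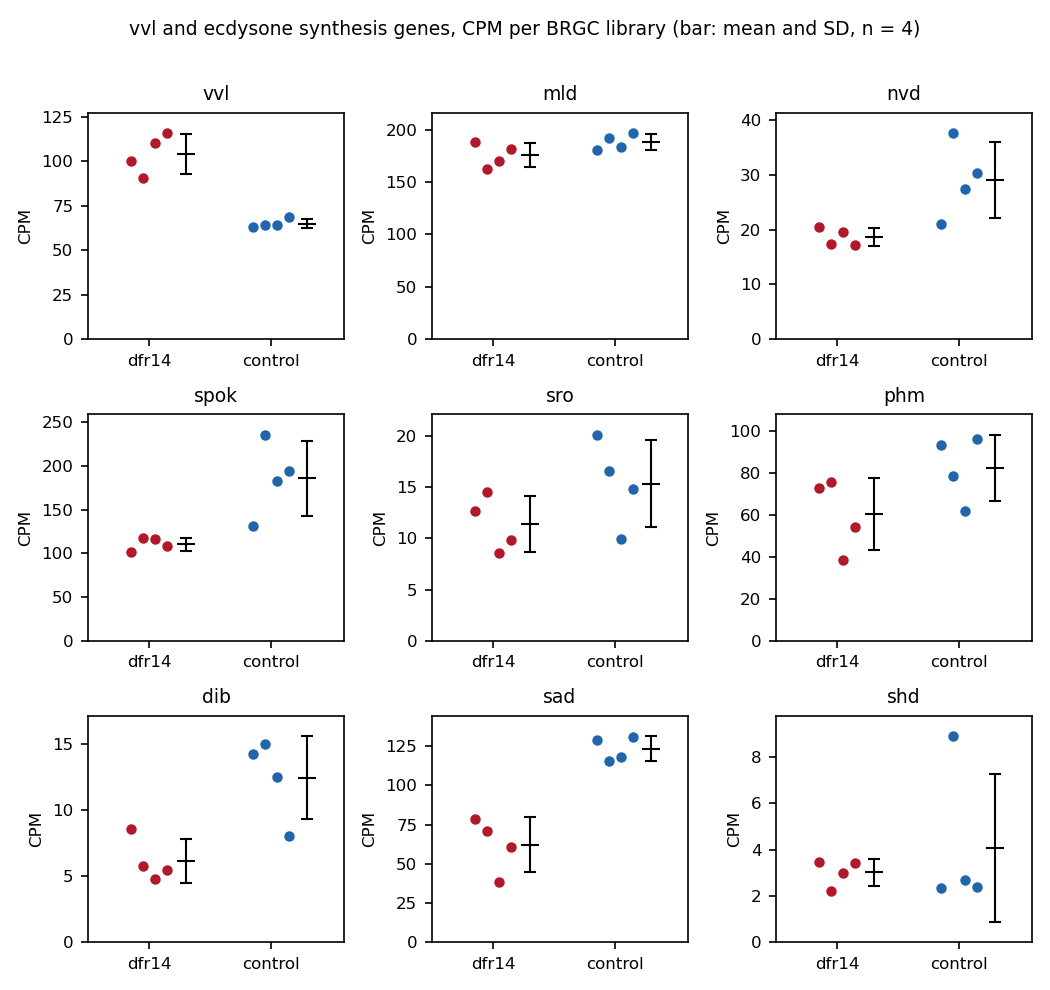
CPM per library (vertical axes, from 0) of vvl, mld, the 6 prothoracic gland enzymes and shd in the 4 dfr14 libraries (red, left) and the 4 control libraries (blue, right), with the mean and SD of each group as a bar. sad and spok separate the groups fully, vvl does so in the other direction, and sro, phm, mld and shd overlap.

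Most other genes of ecdysone production did not pass the test. shd, which converts ecdysone to its active form outside the gland, had 3.48, 2.23, 2.98 and 3.42 CPM in dfr14 libraries, against 2.35, 8.89, 2.69 and 2.39 CPM in control libraries, and was not called (log2 fold change -0.19, adjusted p = 0.78). mld, a zinc finger factor needed for nvd and spok transcription, averaged 176 ± 11.5 CPM in dfr14 libraries and 188 ± 7.66 CPM in control libraries (SD, n = 4 each; adjusted p = 0.36). Of 20 measured regulators and sterol supply genes, 1 was higher and 2 were lower. The lower pair was woc, a zinc finger gene whose mutants lack ecdysone, and Start1, a sterol-binding protein of the prothoracic gland. woc had 335, 278, 274 and 309 CPM in dfr14 libraries, against 421, 416, 387 and 469.9 CPM in control libraries. woc fell by 0.50 on the log2 scale with no overlap (standard error 0.09, adjusted p = 0.0058). Start1 averaged 85 ± 11 CPM in dfr14 libraries and 126 ± 18.1 CPM in control libraries, and fell by 0.57 on the log2 scale (adjusted p = 0.013).

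Genes that answer to ecdysone were called higher at about the share of all genes. Of 27 measured, 3 were higher (11.1%, against 10.1% over all genes) and none was lower (5.9% over all genes), and the median was 0.18 against -0.02 over all genes. The 3 higher genes were ImpL3, ImpL2 and hid. Hr3, a nuclear receptor induced late in an ecdysone pulse, had 20.8, 25.3, 42.1 and 17.9 CPM in dfr14 libraries, against 2.22, 10.6, 63.7 and 42 CPM in control libraries. The control libraries therefore spread more widely than the mutant ones and lay on both sides of them, and Hr3 was not called (adjusted p = 0.65). Hr4, which acts at the same time in the pulse, had 67.3, 78.7, 72.4 and 50.3 CPM in dfr14 libraries, against 18.9, 55.1, 189 and 125 CPM in control libraries (adjusted p = 0.93). Control libraries 1 and 2 were low and 3 and 4 high for both genes. EcR, which encodes the ecdysone receptor, averaged 222 ± 46.4 CPM in dfr14 libraries and 173 ± 8.69 CPM in control libraries and was not called (adjusted p = 0.13). Without control library 3 the higher genes numbered 6.

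The other ring gland hormone also had genes that were higher. Of 13 measured genes of juvenile hormone synthesis, breakdown and response, 4 were higher and none was lower (median 0.12). The higher share was 30.8%, against 10.1% over all genes. JhI-21, a transporter first found as a juvenile hormone-induced transcript, averaged 189 ± 11.9 CPM in dfr14 libraries and 108 ± 6.71 CPM in control libraries. The groups did not overlap, and JhI-21 rose by 0.80 on the log2 scale (standard error 0.07, adjusted p = 0.00011). JhI-26, from the same set of induced transcripts, averaged 17.3 ± 5.72 CPM in dfr14 libraries and 4.63 ± 2.06 CPM in control libraries (log2 fold change 1.96, adjusted p = 0.0059). JhI-1, another such transcript, rose by 0.55, and Hmgs, the HMG-CoA synthase of the mevalonate pathway, rose by 0.40 on the log2 scale. jhamt, the methyltransferase that marks corpora allata cells, averaged 16.6 ± 1.06 CPM in dfr14 libraries and 13.7 ± 3.57 CPM in control libraries and was not called (adjusted p = 0.25). Akh, the adipokinetic hormone of the corpora cardiaca, averaged 48.1 ± 6.62 CPM in dfr14 libraries and 35.1 ± 9.3 CPM in control libraries (adjusted p = 0.13).

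ImpL3 and ImpL2, which act on sugar use and on insulin signalling, were both higher in mutant tissue. ImpL3 encodes lactate dehydrogenase, which turns pyruvate to lactate, and had 187, 177, 198 and 172 CPM in dfr14 libraries, against 20.3, 13.7, 14.9 and 19 CPM in control libraries. Every dfr14 library was several times above every control library, and ImpL3 rose by 3.45 on the log2 scale (standard error 0.13, adjusted p = 2.4e-07). ImpL2, a secreted binder of insulin-like peptides, had 338, 422, 387 and 372 CPM in dfr14 libraries, against 129, 152, 190.5 and 188 CPM in control libraries. ImpL2 rose by 1.22 on the log2 scale without overlap (standard error 0.13, adjusted p = 0.00029). Glycolysis genes were higher in 5 of 18 (27.8%, against 10.1% over all genes) and lower in none. Their median was 0.07 against -0.02 over all genes.

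Within that list, Pfk, the phosphofructokinase that commits sugar to glycolysis, had 261, 233, 259 and 267 CPM in dfr14 libraries, against 192, 146, 116 and 147 CPM in control libraries. The groups did not overlap, and Pfk rose by 0.78 on the log2 scale (adjusted p = 0.0044). Hex-A, a hexokinase, rose by 0.65 (adjusted p = 0.0075), and Tret1-1, a trehalose transporter of glia, rose by 1.49 (adjusted p = 0.0064). Of 24 insulin and growth genes, 3 were higher and 3 were lower (12.5% each, against 10.1% and 5.9% over all genes). Thor, a repressor of translation that insulin signalling holds back, averaged 107 ± 16.1 CPM in dfr14 libraries and 62.1 ± 8.21 CPM in control libraries (log2 fold change 0.78, adjusted p = 0.0042). Lnk, an adaptor of the insulin receptor, averaged 78 ± 5.49 CPM in dfr14 libraries and 100.2 ± 7.25 CPM in control libraries (log2 fold change -0.36, adjusted p = 0.014). The insulin-like peptide gene Ilp2 averaged 28.3 ± 6.39 CPM in dfr14 libraries and 30 ± 7.38 CPM in control libraries and was not called (adjusted p = 0.83).

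Among 35 measured peptide hormone genes, 1 was higher (2.86%, against 10.1% over all genes) and 3 were lower (8.57%, against 5.9% over all genes). The higher count was 0 without dfr14 library 4 or control library 4 and 2 without control library 3, and the lower count was 5 without dfr14 library 3. natalisin, a tachykinin-related peptide of a few brain neurons, had 3.99, 4.15, 3.75 and 4.87 CPM in dfr14 libraries, against 15.9, 11.6, 9.09 and 10.9 CPM in control libraries. Pdf, the peptide of clock neurons, had 10.4, 9.7, 11.3 and 12.6 CPM in dfr14 libraries, against 32.4, 18.1, 22.5 and 24.8 CPM in control libraries. Both fell without overlap, natalisin by 1.46 (standard error 0.18, adjusted p = 0.00066) and Pdf by 1.12 on the log2 scale (standard error 0.17, adjusted p = 0.0023). NPF, a peptide of feeding circuits, fell by 0.76 (standard error 0.14, adjusted p = 0.0073). Ptth, the brain peptide that drives ecdysone release, averaged 4.7 ± 0.532 CPM in dfr14 libraries and 3.24 ± 0.917 CPM in control libraries and was not called (adjusted p = 0.11).

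Many neural stem cell genes were lower, while most neuronal and glial genes were not called. Of 28 neuroblast and progenitor genes, 13 were lower and none was higher, with a median of -0.36. The summed level of the list overlapped, at 4164 to 4960 CPM in dfr14 libraries and 4239 to 5999 CPM in control libraries. wor, a Snail-family factor of neuroblasts, had 32.3, 22.3, 19.4 and 23.3 CPM in dfr14 libraries, against 58, 57, 36.6 and 39.9 CPM in control libraries. wor fell by 0.97 on the log2 scale without overlap (standard error 0.19, adjusted p = 0.0095). dpn, the transcriptional repressor that keeps neuroblasts self-renewing, had 22.4, 22.1, 20.1 and 25.1 CPM in dfr14 libraries, against 38.3, 34.5, 27.1 and 36 CPM in control libraries. dpn fell by 0.59 (standard error 0.12, adjusted p = 0.011), and ase, the proneural factor of the same cells, fell by 0.55 on the log2 scale (standard error 0.10, adjusted p = 0.0046). D, a Sox factor of intermediate progenitors, averaged 26.9 ± 3.58 CPM in dfr14 libraries and 51.4 ± 4.26 CPM in control libraries (log2 fold change -0.94, adjusted p = 0.00046).

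The regional factors of the optic lobe showed a like count. Of 24 optic lobe and eye field genes, 11 were lower and none was higher (median -0.42), some of them also on the neuroblast list. Their summed level overlapped, at 1700 to 1859 CPM in dfr14 libraries and 1721 to 1932 CPM in control libraries. hbn, a homeobox gene of the optic lobe, had 13.6, 10.1, 9.41 and 10.6 CPM in dfr14 libraries, against 20.7, 18.1, 21.8 and 20.3 CPM in control libraries. The groups did not overlap, and hbn fell by 0.89 on the log2 scale (standard error 0.13, adjusted p = 0.0017). Vsx1, which marks part of the outer optic lobe, fell by 0.90 (standard error 0.18, adjusted p = 0.0097). The 9 factors that neuroblasts express in temporal order were not called, with a median of 0.21. Among them Imp, an early RNA-binding protein, averaged 196 ± 60.6 CPM in dfr14 libraries and 146 ± 26.3 CPM in control libraries (adjusted p = 0.25).

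Markers of differentiated cells give the background for these lists. elav, present in all neurons, had 436, 354, 558 and 496 CPM in dfr14 libraries, against 365, 482, 567 and 441 CPM in control libraries. repo, present in nearly all glia, had 47.3, 38.4, 49 and 42.2 CPM in dfr14 libraries, against 49.4, 37, 39.2 and 54.8 CPM in control libraries. Both overlapped fully and neither was called (adjusted p = 0.97 for elav and 0.95 for repo). Of 35 neuron genes, 2 were higher (5.71%, against 10.1% over all genes) and none was lower. The higher neuron genes numbered 4 without dfr14 library 2 and none without dfr14 library 4 or control library 1 or 4. Of 19 glia genes, 1 was higher and 1 was lower (5.26% each). The lower glial gene was gcm, the switch factor for glia that is also active in the optic lobe, at 12.8 ± 2.61 CPM in dfr14 libraries and 20.7 ± 1.89 CPM in control libraries (log2 fold change -0.70, adjusted p = 0.013). In the immunoglobulin adhesion families dpr, DIP, beat and Dscam, 4 of 47 were higher and 4 were lower. Each share was 8.51%, against 10.1% higher and 5.9% lower over all genes. Dscam4 averaged 137 ± 23.9 CPM in dfr14 libraries and 289 ± 32.1 CPM in control libraries (log2 fold change -1.08, adjusted p = 0.00062). dpr20 went the other way, with 42.7 ± 2.77 CPM in dfr14 libraries and 16.9 ± 3.13 CPM in control libraries (log2 fold change 1.35, adjusted p = 0.00015).

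Notch pathway genes were lower in 8 of 34 and higher in 1, with 5 lower without control library 4. fng, the glycosyltransferase that tunes the receptor, had 130.4, 133, 128 and 127 CPM in dfr14 libraries, against 158, 164, 154 and 159.7 CPM in control libraries. The difference was small but the replicates were close, and fng fell by 0.29 on the log2 scale (standard error 0.06, adjusted p = 0.0079). Larger falls without overlap were those of spdo (log2 fold change -0.94, adjusted p = 0.00105) and rumi (log2 fold change -0.65, adjusted p = 0.00049). pen-2, a subunit of the gamma-secretase that cuts Notch, was the higher gene, at 35.4 ± 4.64 CPM in dfr14 libraries and 22.2 ± 1.63 CPM in control libraries (log2 fold change 0.66, adjusted p = 0.0034).

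Differences in chromatin and transcription complexes were small and mostly downward. Of 41 Polycomb and Trithorax genes, 12 were lower and 1 was higher, and 34 of the 41 fold changes were negative (median -0.18). Bap111, a subunit of the Brahma remodeller, had 89.7, 80.6, 68.1 and 82.3 CPM in dfr14 libraries, against 139, 114, 110.0 and 138 CPM in control libraries. Bap111 fell by 0.64 on the log2 scale without overlap (standard error 0.11, adjusted p = 0.0044). brm, the ATPase of the same complex, had 353, 298, 334 and 358 CPM in dfr14 libraries, against 429.5, 418, 430.2 and 424 CPM in control libraries. brm fell by 0.34 (standard error 0.08, adjusted p = 0.014), and ph-p, a Polycomb repressive subunit, fell by 0.33 on the log2 scale (standard error 0.07, adjusted p = 0.012). Lower calls in this list numbered 5 without dfr14 library 4 or control library 4, 8 without dfr14 library 3 or control library 1, and 17 with scaling by library size alone.

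HDAC1, the main class I histone deacetylase of flies, averaged 345 ± 18.7 CPM in dfr14 libraries and 451 ± 36.3 CPM in control libraries (log2 fold change -0.38, adjusted p = 0.012). Of 28 Mediator subunits, the bridge between transcription factors and RNA polymerase, 4 were lower and none was higher. The lower subunits numbered 2 without control library 1 or control library 4, and 10 with scaling by library size alone. MED16 showed the largest difference of these, at 29.9 ± 3.53 CPM in dfr14 libraries and 49 ± 2.3 CPM in control libraries (log2 fold change -0.72, standard error 0.10, adjusted p = 0.001). DNA replication and cell cycle genes were lower in 6 of 42, and 40 of the 42 were negative (median -0.27). That count was 1 without control library 1, 23 without control library 3, and 20 with scaling by library size alone. Proteasome subunits were negative in 31 of 33 (median -0.28), and 4 were called, but none without dfr14 library 3, dfr14 library 4 or control library 1. A negative lean was not particular to these lists. Cytoplasmic ribosomal proteins were negative in 70 of 85 (median -0.26), with 1 called higher and none lower. Over all genes, 5070 of 9731 fold changes were negative.

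Several stress and cell death genes were higher. Of 26 stress signalling genes, 9 were higher and none was lower (median 0.26). crc, the fly ATF4 that drives the integrated stress response, had 1621, 1759, 1668 and 1608 CPM in dfr14 libraries, against 901, 1015, 896 and 884 CPM in control libraries. The groups did not overlap, and crc rose by 0.85 on the log2 scale (standard error 0.09, adjusted p = 0.00019). Xrp1, a bZIP factor of cell competition and stress, had 607, 577, 686 and 637 CPM in dfr14 libraries, against 379, 386, 305 and 374 CPM in control libraries. Xrp1 rose by 0.80 (standard error 0.10, adjusted p = 0.00055), and Irbp18, with which Xrp1 forms a dimer, rose by 0.94 on the log2 scale (standard error 0.16, adjusted p = 0.004). Ire1, the sensor of misfolded protein in the endoplasmic reticulum, rose by 0.46 (standard error 0.07, adjusted p = 0.0019).

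Of 16 cell death genes, 3 were higher and 1 was lower (18.8% and 6.25%, against 10.1% and 5.9% over all genes). hid, which blocks the inhibitor of apoptosis proteins, had 79, 83.2, 86.7 and 105 CPM in dfr14 libraries, against 32.9, 52, 63 and 53.1 CPM in control libraries. hid rose by 0.84 on the log2 scale without overlap (standard error 0.18, adjusted p = 0.013). Strica, a caspase, had 22.5, 22.2, 30.1 and 22.2 CPM in dfr14 libraries, against 10.4, 12.3, 9.89 and 11.7 CPM in control libraries (log2 fold change 1.12, standard error 0.13, adjusted p = 0.00043). Xrp1 is the third, since it stands on both lists. Aminoacyl-tRNA synthetases were higher in 7 of 32 and lower in 3. LeuRS, the leucine enzyme of the cytoplasm, averaged 197 ± 12.7 CPM in dfr14 libraries and 148 ± 5.39 CPM in control libraries (log2 fold change 0.41, adjusted p = 0.0038). Without control library 4, 3 of the synthetases were higher, and without dfr14 library 1 or dfr14 library 4, 4 were. The lower count was 0 without dfr14 library 4 and 1 without dfr14 library 3, control library 1 or control library 4.

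Transcripts of the mitochondrial genome took a larger share of the mutant libraries. They made up 9.45 ± 2.68% of reads in dfr14 libraries (6.72 to 12.7%) and 3.24 ± 0.975% in control libraries (2.09 to 4.45%; SD, n = 4 each). The groups did not overlap, and the exact two-sided permutation test over the 70 ways of dividing 8 libraries gave p = 0.029, the smallest it allows. Without the 2 ribosomal RNA genes the share was 4.36 ± 1.61% in dfr14 libraries and 0.989 ± 0.331% in control libraries (exact permutation p = 0.029). Of the 21 mitochondrial transcripts, 18 were higher and none was lower (median 2.16). mt:srRNA, the small ribosomal RNA, had 671, 1042, 2458 and 1936 CPM in dfr14 libraries, against 5.39, 6.19, 3.96 and 3.93 CPM in control libraries. It had the largest rise of the 21, by 8.12 on the log2 scale (standard error 0.36, adjusted p = 1.1e-06). mt:ND1, a subunit of respiratory complex I, had 1268, 1519, 3054 and 2439 CPM in dfr14 libraries, against 213, 427, 279.7 and 312 CPM in control libraries (log2 fold change 2.70, standard error 0.29, adjusted p = 0.0003).

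Most nuclear genes of the same organelle were not called. Of 67 nuclear respiratory chain and ATP synthase genes, 1 was higher and 3 were lower, and 61 were negative (median -0.23), but none was lower without dfr14 library 4, control library 1 or control library 4, and 1 was without dfr14 library 3. Mitochondrial ribosomal proteins were higher in 2 and lower in 7 of 72 (median -0.12). The lower ones numbered 2 without dfr14 library 3, dfr14 library 4 or control library 1, 3 without control library 2 or control library 4, and 11 with scaling by library size alone. mRpL14, one of the lower ones, averaged 14.3 ± 0.864 CPM in dfr14 libraries and 21.1 ± 2.49 CPM in control libraries (log2 fold change -0.55, adjusted p = 0.0086). Libraries were selected for poly-A, and how far the selection bore on the mitochondrial share was not tested. Leaving the mitochondrial transcripts out before scaling gave 960 higher and 580 lower genes elsewhere in the genome.

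**Figure D3:**
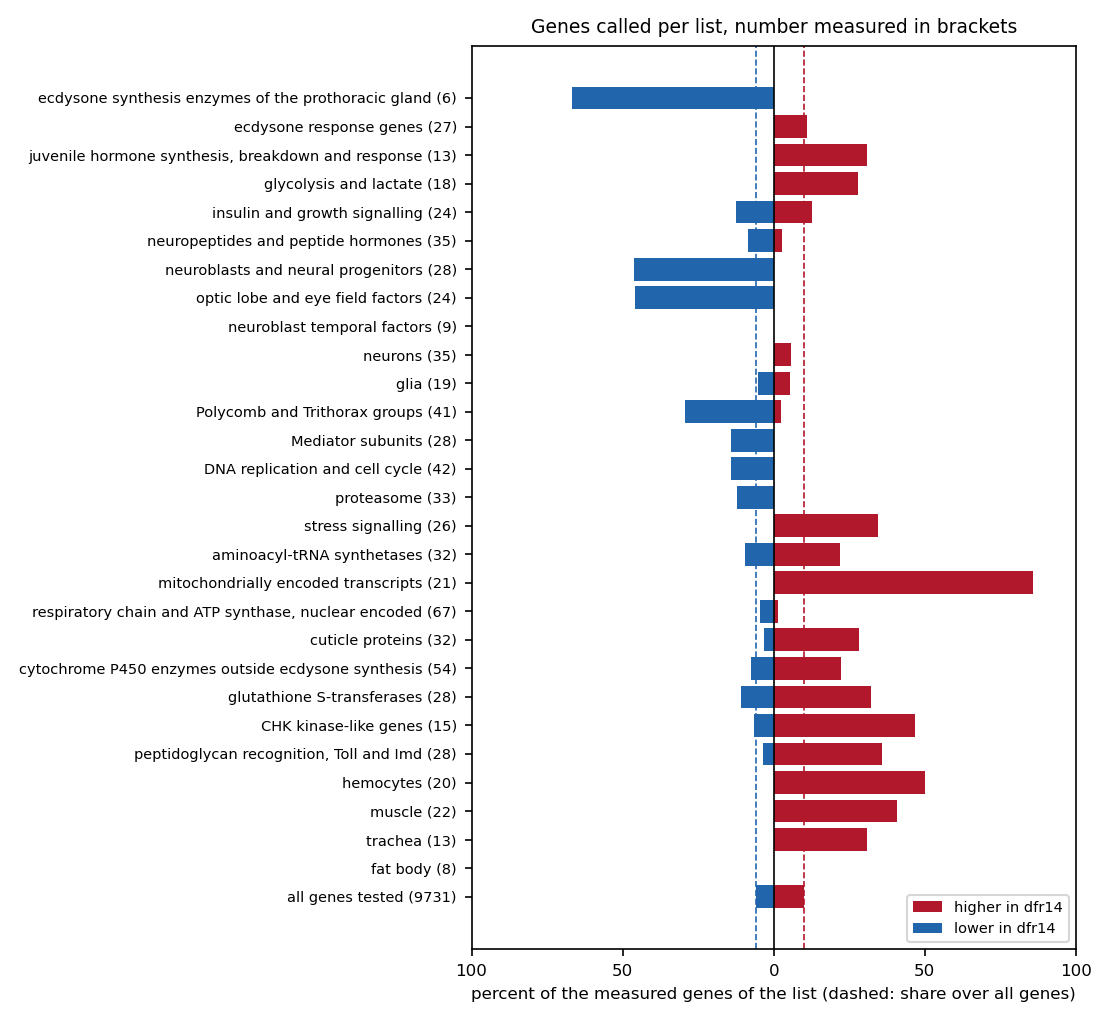
Percent of the measured genes of each list that were called higher (red, right) or lower (blue, left) in dfr14, with the number measured in brackets and dashed lines at the shares over all genes (10.1% and 5.9%). The ecdysone enzymes, neuroblast and optic lobe lists reach 45.8% lower or more, and the mitochondrial transcripts reach 85.7% higher.

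Cuticle and detoxification families held some of the largest single changes. Cuticle proteins were higher in 9 of 32 and lower in 1 (median 0.45). Cpr64Ac had 18.9, 24.4, 26.9 and 25.8 CPM in dfr14 libraries, against no read in any control library. Taking 3 reads over all control libraries as the limit of detection, it was at least 809-fold higher. TwdlE, of the Tweedle family, averaged 26.3 ± 3.43 CPM in dfr14 libraries and 11.7 ± 3.91 CPM in control libraries (log2 fold change 1.20, adjusted p = 0.0044). Chitin genes were higher in 6 of 28 and lower in none, among them Cda5, a chitin deacetylase, with a log2 fold change of 1.11 (adjusted p = 0.0019).

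Of 54 cytochrome P450 genes outside ecdysone synthesis, 12 were higher and 4 were lower, with 7 lower without control library 3. The neighbours Cyp309a1 and Cyp309a2 on chromosome 2L were both nearly silent in controls. Cyp309a2 had 7.84, 13.1, 7.15 and 11.3 CPM in dfr14 libraries, against 0.159, 0.0421, 0.0471 and 0.121 CPM in control libraries, and rose by 5.82 on the log2 scale (adjusted p = 4.1e-06). Cyp6d4 rose by less but with closer replicates, at 56.1 ± 2.51 CPM in dfr14 libraries and 22.5 ± 1.29 CPM in control libraries (log2 fold change 1.31, standard error 0.08, adjusted p = 5.5e-06). Glutathione S-transferases, which conjugate toxins, were higher in 9 of 28 and lower in 3. GstT3 averaged 20.4 ± 3.77 CPM in dfr14 libraries and 8.52 ± 0.417 CPM in control libraries (log2 fold change 1.24, adjusted p = 0.00036), while GstD9 had 22.4, 25.1, 25.3 and 22.6 CPM in dfr14 libraries, against 85, 95.4, 53.7 and 77.4 CPM in control libraries. GstD9 fell by 1.67 on the log2 scale without overlap (standard error 0.16, adjusted p = 0.00014).

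Sugar-conjugating enzymes also split. Ugt86Di had 11.8, 15.2, 14.4 and 11.7 CPM in dfr14 libraries, against 67.2, 75.4, 85.5 and 65.5 CPM in control libraries. Its near neighbour on chromosome 3R, Ugt86Da, had 65, 76.2, 74.5 and 67.3 CPM in dfr14 libraries, against 45, 43.2, 44.5 and 44.5 CPM in control libraries. Ugt86Di fell by 2.46 on the log2 scale (standard error 0.12, adjusted p = 1.7e-06) and Ugt86Da rose by 0.67 (standard error 0.07, adjusted p = 0.00032). Of 15 CHK kinase-like genes, a family related to kinases that inactivate ecdysteroids in moths, 7 were higher and 1 was lower (median 1.13). CG11893 had 37.4, 36, 37.8 and 35 CPM in dfr14 libraries, against 0.0317, 0.126, 0.141 and 0.081 CPM in control libraries. CG10559, in the same cluster on chromosome 3R, had 15.1, 17.9, 16.8 and 13.4 CPM in dfr14 libraries, against 2.38, 2.65, 1.55 and 2.23 CPM in control libraries (log2 fold change 2.81, adjusted p = 1.2e-05). How reads were shared among near-identical copies is not given in the sources used here, so values within these clustered families are less certain.

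Several immune and blood cell genes were higher. Of 28 peptidoglycan recognition, Toll and Imd genes, 10 were higher and 1 was lower (median 0.19), with 6 higher without dfr14 library 4 or control library 4. GNBP2, a pattern recognition protein, had 16, 18.3, 18.7 and 15.5 CPM in dfr14 libraries, against 9.1, 9.44, 6.5 and 8.46 CPM in control libraries. GNBP2 rose by 1.03 on the log2 scale without overlap (standard error 0.14, adjusted p = 0.0011). Fadd, an adaptor of the Imd pathway, rose by 0.67 (standard error 0.11, adjusted p = 0.0034). Of 7 antimicrobial peptide genes, 2 were higher and 1 was lower, all at low levels. CecA2, a cecropin, averaged 1.73 ± 0.871 CPM in dfr14 libraries and 0.326 ± 0.0736 CPM in control libraries (log2 fold change 2.03, adjusted p = 0.0099).

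Of 20 hemocyte genes, 10 were higher and none was lower (median 0.71), and their summed level was 1238 to 1537 CPM in dfr14 libraries and 665 to 1332 CPM in control libraries. atilla, a surface protein of lamellocytes, had 12.9, 22.8, 16.9 and 24.9 CPM in dfr14 libraries, against 5.52, 4.26, 3.44 and 4.25 CPM in control libraries. atilla rose by 2.10 on the log2 scale without overlap (standard error 0.22, adjusted p = 0.00026). ItgaPS4 rose by 5.93 (adjusted p = 9.1e-06) and Itgbn by 3.87 (adjusted p = 1.5e-05), both without overlap. NimC1 averaged 51.9 CPM in dfr14 libraries and 12.8 CPM in control libraries, also without overlap (log2 fold change 2.04, adjusted p = 0.00036). Hml, the usual marker of plasmatocytes, had 225, 196, 372 and 219 CPM in dfr14 libraries, against 294, 404, 124 and 291 CPM in control libraries. Its groups overlapped and Hml was not called (adjusted p = 0.92).

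Muscle genes were higher in 9 of 22 (median 0.45), with a summed level of 1707 to 1974 CPM in dfr14 libraries and 1302 to 1547 CPM in control libraries. TpnC73F, a troponin C, had 27.7, 30, 22.6 and 23.9 CPM in dfr14 libraries, against 14.6, 16.5, 9.42 and 9.8 CPM in control libraries (log2 fold change 1.08, standard error 0.19, adjusted p = 0.0053). Mhc, the muscle myosin heavy chain, averaged 17.4 ± 9.64 CPM in dfr14 libraries and 12.7 ± 2.56 CPM in control libraries and was not called (adjusted p = 0.61). The muscle count was 5 without dfr14 library 4 and 4 without control library 4. Tracheal genes were higher in 4 of 13 (summed 2265 to 2690 CPM in dfr14 libraries and 1993 to 2390 CPM in control libraries), led by Gasp, a chitin-binding protein of the airway lining, at 278 ± 53.2 CPM in dfr14 libraries and 143 ± 12.2 CPM in control libraries (log2 fold change 0.94, adjusted p = 0.00097).

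Fat body genes were not called in either direction (0 of 8) but differed between control libraries. Their summed level was 414 to 641 CPM in dfr14 libraries and 329 to 8196 CPM in control libraries. Lsp1alpha, a larval serum protein, had 1.76, 0.519, 3.52 and 11.6 CPM in dfr14 libraries, against 0.729, 279.9, 6.12 and 56.9 CPM in control libraries. Fbp1, the receptor for serum protein uptake, had 246, 150.1, 104 and 6.09 CPM in dfr14 libraries, against 22.1, 5.77, 12.6 and 265 CPM in control libraries. Control library 4 was high for both genes, while control library 2 was the highest for Lsp1alpha and the lowest for Fbp1. Without control library 3, 2 fat body genes were called lower. Hemocytes, muscle and fat body are not part of the brain or the glands, whereas tracheal branches run through the ring gland. The part of these 4 cell types in the results was not tested.

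**Figure D4:**
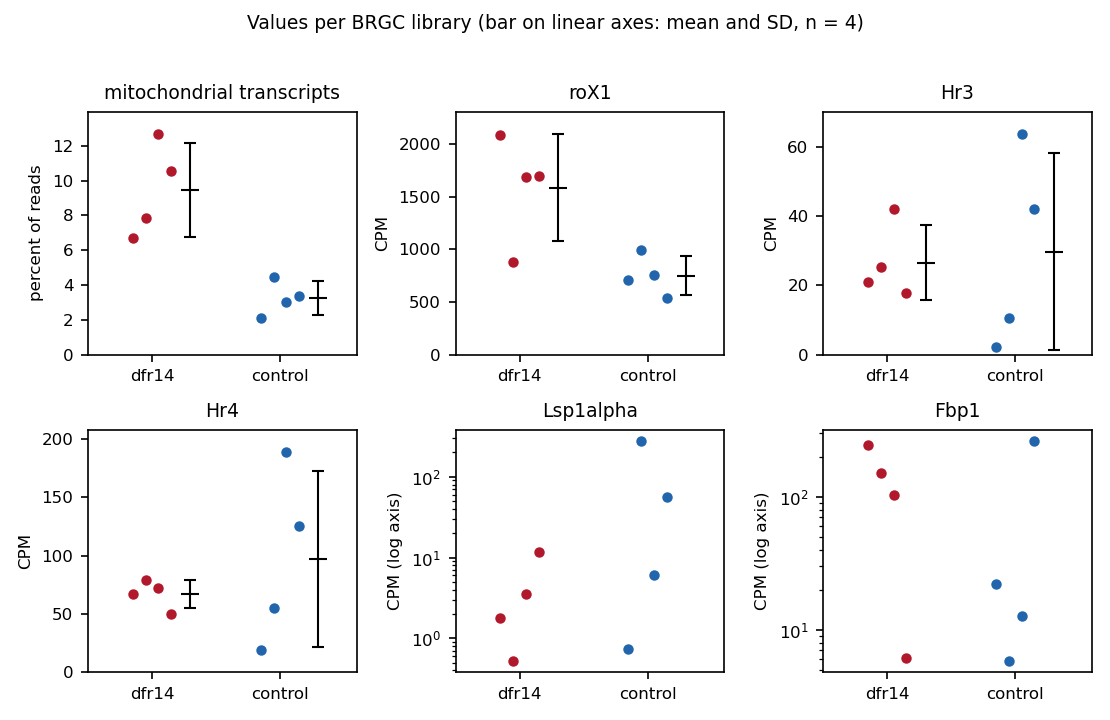
Values per library in 4 dfr14 (red, left) and 4 control (blue, right) BRGC libraries for the share of reads from the mitochondrial genome and for roX1, Hr3, Hr4, Lsp1alpha and Fbp1 in CPM, the last pair on log axes, with the mean and SD as a bar on linear axes. The mitochondrial share separates the groups, Hr3 and Hr4 spread most among controls, and Lsp1alpha and Fbp1 vary within both groups.

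The largest changes included many genes of no listed pathway. The 10 largest rises, among called genes with at least 1 CPM in a group and no overlap, belonged to CG32581, Cpr64Ac, mt:srRNA, CG1208, CG11893, CG17669, CR44383, CR44138, mt:tRNA:Tyr-GTA and CG6830, with fitted log2 fold changes of 6.36 to 8.72. Fitted values of genes with almost no reads in 1 group depend on the prior count and are no bounds. CG32581, on the X chromosome (15796908 to 15799162), had 33.4, 35.2, 39.6 and 34.2 CPM in dfr14 libraries, against no read in any control library, so that it was at least 1201-fold higher. Its immediate neighbour CR44383, a noncoding locus, had 12.2, 18, 16.3 and 14.3 CPM in dfr14 libraries, against 0, 0.126, 0 and 0.0405 CPM in control libraries. CG1208, a sugar transporter-like gene, had 61.3, 108, 68.7 and 114 CPM in dfr14 libraries, against 0.0951, 0.632, 0.283 and 0.203 CPM in control libraries. CG32581, CR44383 and CG1208 were close to off in control libraries, a pattern that choosing the largest fold changes favours.

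In the opposite direction, the genes with the largest falls were close to off in dfr14 libraries, which the same choice favours. Some of them were also low in control libraries, such as CR45450 (mean 1.16 CPM) and CR45449 (mean 1.54 CPM). The 10 largest falls belonged to Tektin-C, CG13032, CG6660, CR43488, CR45714, CR45450, CR44867, tut, CR45449 and CR45625, with fitted log2 fold changes of -9.01 to -3.47. CG13032 had 0.139, 0, 0.0765 and 0 CPM in dfr14 libraries, against 10.9, 10.7, 10.9 and 11.7 CPM in control libraries. Tektin-C, a protein of ciliary and sperm microtubules, had 0.139, 0.0519, 0.0382 and 0.141 CPM in dfr14 libraries, against 111, 72, 77.2 and 95.5 CPM in control libraries. It fell by 9.01 on the log2 scale, the largest fall of all genes tested (standard error 0.25, adjusted p = 5e-08). Of the other 17 cilia genes measured, 4 were higher and 4 were lower. The lower ones numbered 1 without dfr14 library 1 or control library 1, 2 or 4, and also when the variance prior did not follow intensity, and 2 without dfr14 library 2 or 4. BBS4, of the ciliary trafficking complex, rose by 2.91 (adjusted p = 0.0013). tut, a translational regulator of the male germ line, had 0.325, 0, 0.153 and 0.281 CPM in dfr14 libraries, against 2.88, 4.21, 3.16 and 2.11 CPM in control libraries (log2 fold change -3.72, adjusted p = 0.0012).

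Of 313 noncoding and pseudogene CR loci, 70 were higher (22.4%) and 29 were lower (9.27%), with a median of 0.32. CR43488 had no read in any dfr14 library, against 3.42, 3.58, 2.26 and 3.12 CPM in control libraries, and was at least 91.2-fold lower. The neighbours CR45449 and CR45450 on chromosome 2L were lower together, and CR45450, with no read in dfr14 libraries and 1.16 ± 0.241 CPM in control libraries, was at least 34.1-fold lower. CR44138, on chromosome 3R, was higher, with 16.1, 14.5, 20.9 and 19 CPM in dfr14 libraries, against 0.0634, 0.0843, 0.141 and 0.0405 CPM in control libraries (log2 fold change 6.75, adjusted p = 2.7e-07). In all, 9 genes had no read in the control libraries and at least some in dfr14, and 3 had none in the dfr14 libraries.

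Called genes lay on every major chromosome arm. The share called was 12.6% on X, 15.5% on 2L, 16% on 2R, 18.7% on 3L and 15.2% on 3R, against 16% over all genes. On chromosome 4 the share was 32.6%, with 29 of its 92 genes higher and 1 lower, a median of 0.28, and 77 of 92 fold changes above 0. unc-13, a chromosome 4 gene for synaptic vesicle priming, had 1162, 976, 1606 and 1283 CPM in dfr14 libraries, against 586, 724, 973 and 707 CPM in control libraries (log2 fold change 0.75, adjusted p = 0.022). Its call ended without dfr14 library 4, control library 1 or control library 4. Ekar, a glutamate receptor subunit of the same chromosome, averaged 37.7 ± 3.98 CPM in dfr14 libraries and 19.2 ± 3.86 CPM in control libraries (log2 fold change 0.99, adjusted p = 0.0023). The 1 lower gene was ey, the eye selector, at 68.2 ± 6.67 CPM in dfr14 libraries and 83.6 ± 3.74 CPM in control libraries (log2 fold change -0.30, adjusted p = 0.041), a call that ended without dfr14 library 2 or 4 or control library 1, 2 or 4. The count of higher genes on chromosome 4 was 17 without dfr14 library 4 or control library 4, and 18 without control library 1.

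Pof and the roX RNAs act in chromosome-wide control of chromosome 4 and of the male X. Pof, named here after its values were seen, averaged 36.1 ± 1.98 CPM in dfr14 libraries and 46.3 ± 3.97 CPM in control libraries (log2 fold change -0.35, adjusted p = 0.021), and its call ended without dfr14 library 1, 3 or 4 or control library 1 or 4. roX1 had 2091, 876, 1689 and 1694 CPM in dfr14 libraries, against 712, 990.1, 760.5 and 537 CPM in control libraries. The second dfr14 library lay within the control range, and roX1 rose by 1.05 on the log2 scale (standard error 0.27, adjusted p = 0.028), a call that ended without the same 5 libraries, each in turn. roX2 had 74.8, 32.1, 54.4 and 55.7 CPM in dfr14 libraries, against 26.9, 29.3, 22.5 and 14.7 CPM in control libraries. Its groups did not overlap, and roX2 rose by 1.20 (standard error 0.27, adjusted p = 0.017), though not without dfr14 library 4, where adjusted p was 0.052. roX RNAs are made in males, the sex of the larvae is not given in the sources used here, and its part in these values was not tested.

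Marker genes of the stocks and the region around vvl describe the genetic background. Of 7 stock marker genes measured, 3 were higher (42.9%, against 10.1% over all genes) and none was lower. The 3 were w, y and e. The groups overlapped for e, which rose by 0.58 on the log2 scale (adjusted p = 0.042). w is the white gene, and the background label carried by both groups names a mutant white allele. w had 2.37, 4.51, 1.68 and 1.97 CPM in dfr14 libraries, against 0.222, 0.253, 0.518 and 0.162 CPM in control libraries (log2 fold change 2.85, standard error 0.40, adjusted p = 0.0015). The label is thus the same in both groups while the level of w differed, and the cause was not tested. y, the yellow pigment gene, had 2.46, 4.05, 5.12 and 3.23 CPM in dfr14 libraries, against 1.14, 1.39, 0.801 and 0.891 CPM in control libraries (log2 fold change 1.72, standard error 0.28, adjusted p = 0.0033). Along 3L, the share of genes called was 16% among the 25 genes within 250 kb of vvl and 12.7 to 21.9% in the 6 bins farther out. The highest share, 21.9%, was in the bin from 500 to 1000 kb. That bin held ImpL3 and Tektin-C, at -527.5 and -993.6 kb from vvl. Whether their place bore on their levels was not tested. The nearest called genes were CG8549, CG8398, MCU and Prat2, all higher. CG8398 had 12.9, 15.6, 18.2 and 19.6 CPM in dfr14 libraries, against 5.36, 5.39, 4.33 and 5.99 CPM in control libraries. It rose by 1.63 on the log2 scale (standard error 0.16, adjusted p = 0.00016), while the calls for the other neighbours each ended without control library 4, and for CG8549 without any 1 of the 8 libraries.

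**Figure D5:**
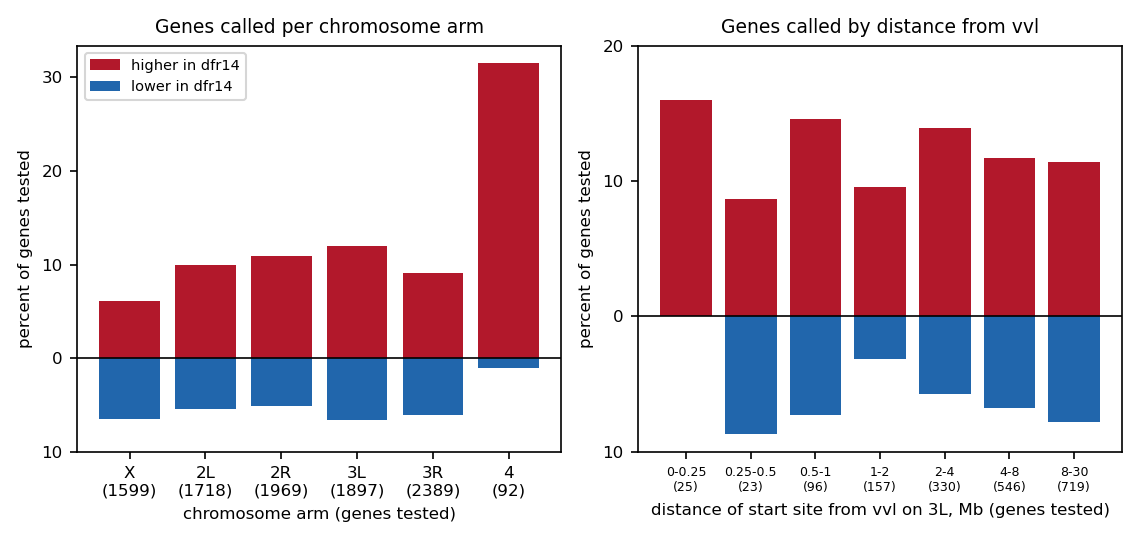
Percent of tested genes called higher (red, up) or lower (blue, down) in dfr14 per chromosome arm (left) and by distance of the start site from vvl on 3L in Mb (right), with the number of genes tested in brackets. Chromosome 4 has the largest share called higher, 31.5%, and the bin nearest to vvl, with 16% called, lies within the range of the others.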

How the data were processed

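RNA of 8 BRGC libraries was compared, 4 dfr14 and 4 control. Reads were trimmed (Trim Galore), aligned to BDGP6 (STAR), assigned to genes (featureCounts) and scaled by TMM factors (edgeR) by the authors. Versions of the trimming, alignment and counting tools are not given in the sources used here. The deposited values are log2 counts per 1000000 reads (CPM) with a prior count averaging 2.0 reads. Values of genes with few reads are drawn toward each other by the prior count, so fold changes of such genes are understated. Undoing the log and the prior count gave whole reads for 100.0% of values (within 0.001 of a whole number), from which CPM without a prior count was computed. Column names carry the group and no replicate number, so library numbers here follow column order. Group membership came from the titles, which the genotype field contradicts.

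The deposited log2 values were tested in R 4.3.3 by limma 3.58.1 with its variance prior following intensity and with Benjamini-Hochberg adjustment over all 9731 genes, at a threshold of 0.05. The fit was also run on simulated data, as a check of the code that does not measure the error of the calls made here. The authors tested counts, whereas log2 values were tested here because that is the deposited unit. The mitochondrial share of reads was compared by an exact two-sided permutation test. Genes were placed by the Ensembl annotation of BDGP6, the same assembly as Release 6. In it 9573 genes matched by identifier and 113 by symbol, with 45 left unplaced. Gene lists (52) were described by their counts of called genes and their medians, with no set test. Lists and genes were chosen with earlier results of these data known. Candidates for naming were vvl and the ecdysone genes the study names. The 10 largest rises and the 10 largest falls among called genes (at least 1 CPM in a group and no overlap) were added. Further candidates were, for each list, up to 4 called genes with the smallest p and members that define the list. The 4 called genes nearest to vvl came last. Not all candidates are described, so the genes shown for a list are not always those with its smallest p. Genes named for the chromosome 4 result, and Pof, were chosen after their values were seen.

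Alternatives were other scalings (RLE size factors, library size alone, mitochondrial transcripts left out), a filter on low counts, a prior count of 0.5, other variance models (no trend, robust, voom weights) and each library left out. The table also holds the authors' own fold changes and p-values, which were not used, and 8 further columns of per-library values that match no label. The libraries of the remaining body were normalized apart and not analysed here.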

Additional observations from a re-analysis of the deposited data

Results flagged for a closer look

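In 15 of 228 groups of 4 values that were examined, 1 library stood far from the other 3 by Dixon's test, a rate near the 1 in 20 that chance gives. In dfr14 libraries, the second library was high for Fadd (17.2 CPM) and Gasp (357 CPM) and low for Vsx1 (3.73 CPM), and it held the only CR44867 value above 0 (0.0519 CPM). The third dfr14 library was high for Hml (372 CPM) and Strica (30.1 CPM, against 22.5 CPM or less in the others). The fourth dfr14 library was high for CG6660 (0.422 CPM) and held the only CR45625 value above 0 (0.141 CPM). Among control libraries, the first was low for Imp (107 CPM), the second was high for shd (8.89 CPM) and crc (1015 CPM), the third was low for Xrp1 (305 CPM), and the fourth was high for Fbp1 (265 CPM), Vsx1 (11.9 CPM) and CG13032 (11.7 CPM).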

How the results depend on the processing

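With 4 libraries a group, the counts of called genes depended on single libraries. With 1 library left out, higher genes numbered 633 to 963, lower genes 268 to 650 and all called genes 901 to 1613, and the lowest values came without dfr14 library 4 or control library 4. Library size alone gave 988 lower genes, against 574, and a median over all genes of -0.10. The count of ecdysone enzymes called lower was 2 to 4 and that of chromosome 4 genes called higher was 17 to 31 with 1 library left out; these alternatives were chosen after seeing the data. The mitochondrial share differed by 5.13 to 7.12 points with 1 library left out (exact permutation p = 0.057, the smallest that 4 against 3 allows). The cause of these shifts was not tested. Of 95 called genes followed through the alternatives, 85 kept their call in every alternative in which they were tested, and none of the 95 changed sign. The 10 that lost it were nvd, dib, roX1, roX2, Pof, unc-13, ey, CG8549, MCU and Prat2. Many of the 95 were named for a large change or a small p in these same data. Their share of kept calls therefore does not carry over to all called genes. The called genes spdo, rumi, ItgaPS4, Itgbn, NimC1 and e were not among the 95. EcR passed the threshold without dfr14 library 2 (adjusted p = 0.049) and Ptth without control library 3 (adjusted p = 0.039). No paired analysis was possible because the columns carry no replicate numbers. Depth limits the low genes, for which 3 reads over a group was taken as the floor, and intervals that count reads cover counting error only.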
